A study of Homo sapiens with 9 samples.

Results

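The DREAM and MuvB cell cycle regulators described here are 10 genes, MYBL2, FOXM1, LIN9, LIN37, LIN52, LIN54, RBL1, RBL2, E2F4 and TFDP1, chosen by symbol from the 60420 gene IDs of the deposited files. Each of the 10 had 1 ID with reads, and all 10 are among the 13825 genes tested, which had values above 0 in both sets of files. The KD87 files form 1 set, and the EV and KD86 files form the other. A second ID that carries the symbol RBL1 is listed at 0 in every library. The RNA came from A375, an established human melanoma cell line, and was read from the 3' ends of its polyadenylated transcripts (QuantSeq 3' mRNA-Seq). The knockdown groups were SPANX KD 86 and SPANX KD 87 (KD86 and KD87), in which SPANX, a family of genes normally active in sperm cells and switched on in some tumours, was knocked down by construct 86 or construct 87. Both were set against an EV control, and the day of collection was day 7 after knockdown. Each group has 3 libraries, all of A375 cells. The labels name the constructs by number only and do not say what kind of construct they are, what EV stands for, or whether the replicates came from separate cultures, so that the p-values describe variation among libraries, part or all of which may be technical.

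MuvB is a protein core made of LIN9, LIN37, LIN52, LIN54 and the histone binding protein RBBP4. In resting cells and early in G1 it is joined by a pocket protein (RBL2 or RBL1), E2F4 or E2F5 and the partner TFDP1 to form DREAM, which represses cell cycle genes. When cyclin-dependent kinases phosphorylate the pocket protein the repressor comes apart. MuvB then takes up MYBL2 (B-MYB), and later FOXM1, and activates genes of G2 and mitosis. Transcripts of such genes are commonly read as a sign of cycling in melanoma and other tumour cell lines.

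DREAM touches DNA in 2 ways, through E2F sites, read by E2F4 with TFDP1, and through the cell cycle homology region (CHR) element, read by LIN54. Promoters of the members were therefore searched for both. RefSeq windows of the GRCh38.p14 build, from 250 bases before to 50 bases after a start site, were at hand for 9 of the 10 members, in 14 windows. An E2F motif (TTTCCCGC, TTTCGCGC, TTTGCCGC or TTTGGCGC on either strand) lay in windows of LIN52, RBL1 and TFDP1, and in those of 4.0% of all 27305 genes in the table. The first of these motifs overlaps the shorter E2F core GGCGGGA, which lay in windows of 7 of the 9 members, against 18.0% of all genes. The CHR letters TTTGAA lay in windows of 4 of the 9, LIN9, LIN37, LIN54 and RBL2, against 18.2% of all genes. A match is a string of letters and not a binding site. The 30-base windows shown here, with the motif in capitals, are those of the activator MYBL2, the E2F partner TFDP1, both pocket proteins and LIN54, the reader of CHR. They lie at chr20:43667064-43667093 (plus strand) for MYBL2, chr13:113584622-113584651 (plus strand, motif on the other strand) for TFDP1, chr20:37096005-37096034 (minus strand) for RBL1, chr16:53434483-53434512 (plus strand) for RBL2 and chr4:83010906-83010935 (minus strand) for LIN54.
MYBL2, E2F core: ccgacgcgcttGGCGGGAgatagaaaagtg
TFDP1, E2F motif: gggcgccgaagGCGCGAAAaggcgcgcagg
RBL1, E2F motif: cagctgcagatTTTCGCGCgctttggcgca
RBL2, CHR: ggcgcttcgccgTTTGAAtggctgcgggcc
LIN54, CHR: ggcccttgtgcgTTTGAAggttggcggggc
The MYBL2 core motif runs from base -39 to base -33 before the start site, and the RBL2 motif from base 25 to base 30 after it. Among the other members, FOXM1 is not in the table.

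Gene reads, as recovered from the deposited values, numbered between 11.31 and 15.56 M a library. Of 10 SPANX genes listed, SPANXC and SPANXD had values above 0. SPANXC stood at 102, 35.3 and 42.4 normalised reads in KD86 libraries, 25.4, 18.1 and 33.8 in KD87 libraries and 402, 151 and 514 in EV libraries. It fell with both constructs (limma adjusted p = 0.00372 with KD86 and 0.00334 with KD87). SPANXD stood at 0.974, 0.883 and 0 in KD86 libraries, 5.28, 6.03 and 7.16 in KD87 libraries and 103, 27.6 and 97.5 in EV libraries, and also fell with both (adjusted p = 0.000145 and 0.00804). SPANX copies are nearly identical, so their separate shares are uncertain. Among 12 melanoma and melanocyte markers, 8 were above 0, while DCT, MLANA, TYR and TYRP1 were at 0, and the summed level ran from 30510 to 52460 in KD86, 13660 to 21680 in KD87 and 6198 to 13740 in EV libraries. Of the epithelial markers 3 of 6 were above 0 (KRT8, KRT14 and KRT18, with EPCAM, CDH1 and KRT5 at 0), summing to 1944 to 2377 in KD86, 6722 to 7481 in KD87 and 8093 to 11200 in EV libraries. Of 4 leukocyte markers LYZ alone was above 0 (239 to 338 in KD86, 368 to 823 in KD87 and 146 to 263 in EV libraries), with PTPRC, CD3E and CD68 at 0. Of 6 fibroblast markers 5 were above 0, summing to 957 to 1315 in KD86, 841 to 1063 in KD87 and 413 to 470.3 in EV libraries, with COL3A1 left out. The endothelial markers CDH5 and VWF were at 0. The part of these markers in the results was not tested.

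Among the members, 1 rose and 3 fell with KD86, 0 rose and 2 fell with KD87, and 2 were higher and 3 lower with KD87 than with KD86. A call means an adjusted p under 0.05 by limma over all 13825 genes. Over all genes tested, 35.6% were called with KD86 against EV (18% higher and 17.6% lower), 10.3% with KD87 against EV (5.91% higher and 4.43% lower) and 25.6% with KD87 against KD86 (12.7% higher and 12.9% lower). The 4 of 10 members called with KD86 are near the background share. In the other comparisons 2 of 10 stood beside 10.3% and 5 of 10 beside 25.6%. With only 10 members, none of these counts was tested against its share. The median log2 fold change of the 10 members was -0.32 with KD86, -0.45 with KD87 and -0.43 with KD87 over KD86, beside -0.04, 0.00 and 0.02 over all genes tested. Both constructs were set against the same 3 EV libraries, so these comparisons share their controls. With the replicate number as a block, the members called with KD87 numbered 5, all lower, against a background of 4281 genes called. In bulk RNA, fewer cells in a cell cycle phase and less RNA per cell cannot be told apart.

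**Figure D1:**
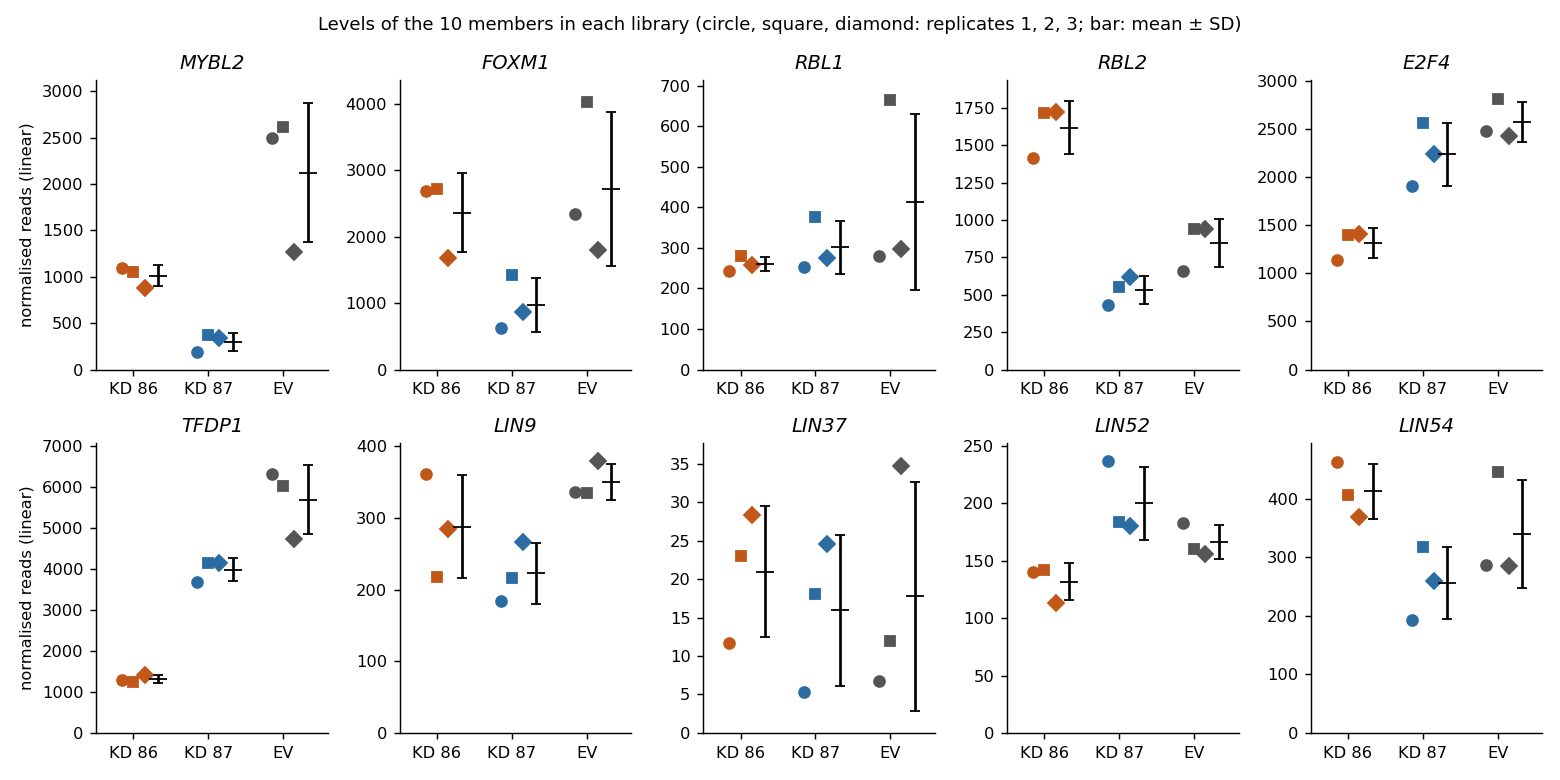
Level of each of the 10 members in every library, in normalised reads on a linear axis from 0, with KD86, KD87 and EV libraries from left to right. Points are libraries by replicate number and bars are the mean ± SD of 3 libraries. MYBL2 is lowest in KD87, TFDP1 and E2F4 in KD86, and RBL2 lies above EV in KD86 and below EV in KD87.

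MYBL2 (ENSG00000101057.15, chromosome 20), the MYB family factor that joins MuvB in S phase, fell with both constructs and further with KD87. Its level was 1095, 1054 and 884 normalised reads in KD86 libraries, 190.2, 374 and 341 in KD87 libraries, and 2493, 2611 and 1262 in EV libraries. The 3 groups did not overlap, and they were ordered KD87, KD86, EV from low to high. EV replicate 3 was the lowest EV library and the nearest to the KD86 values. Means were 1011 ± 112 with KD86, 302 ± 97.8 with KD87 and 2122 ± 747 in EV libraries (SD, n = 3 each). The log2 fold change was -1 with KD86 (SE 0.32, 2-fold lower, limma adjusted p = 0.0329) and -2.80 with KD87 (SE 0.32, 6.95-fold lower, limma adjusted p = 0.00153). KD87 lay 3.47-fold below KD86 (log2 difference -1.80, 95% interval -2.51 to -1.08, limma adjusted p = 0.00283). The KD86 call rests on few libraries. It did not survive leaving out EV replicate 1 (adjusted p = 0.118) or 2 (0.0706), or KD86 replicate 1 (0.0601), 2 (0.0755) or 3 (0.0925), while the fit with the replicate block kept it (0.00849).

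FOXM1 (ENSG00000111206.12, chromosome 12), the forkhead factor that takes over from MYBL2 in G2, fell with KD87. Its level was 2685, 2726 and 1683 normalised reads in KD86 libraries, 631, 1425 and 867 in KD87 libraries, and 2340, 4025 and 1807 in EV libraries. KD86 and EV libraries overlapped, and all 3 KD87 libraries lay below both. Replicate 2 was the highest in each group. The log2 fold change with KD87 was -1.48 (SE 0.36, 2.79-fold lower, limma adjusted p = 0.0266), and KD87 lay 2.51-fold below KD86 (log2 difference -1.33, adjusted p = 0.0208). With KD86 it was -0.16 (95% interval -0.95 to 0.64, adjusted p = 0.763). The KD87 call did not hold without EV replicate 1 (adjusted p = 0.0793), KD87 replicate 1 (0.125) or KD87 replicate 3 (0.0551), nor when only KD87 and EV libraries were fitted (0.0505). The difference between constructs was lost without KD86 replicate 1 (0.0696) or 2 (0.0723) or KD87 replicate 1 (0.0796) or 3 (0.0576). FOXM1 overlaps ITFG2 and RHNO1, which lie on the other strand, and whether strand was used in counting is not given in the sources used here. Deposited values were 147 to 257 for ITFG2 and 321 to 566 for RHNO1.

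**Figure D2:**
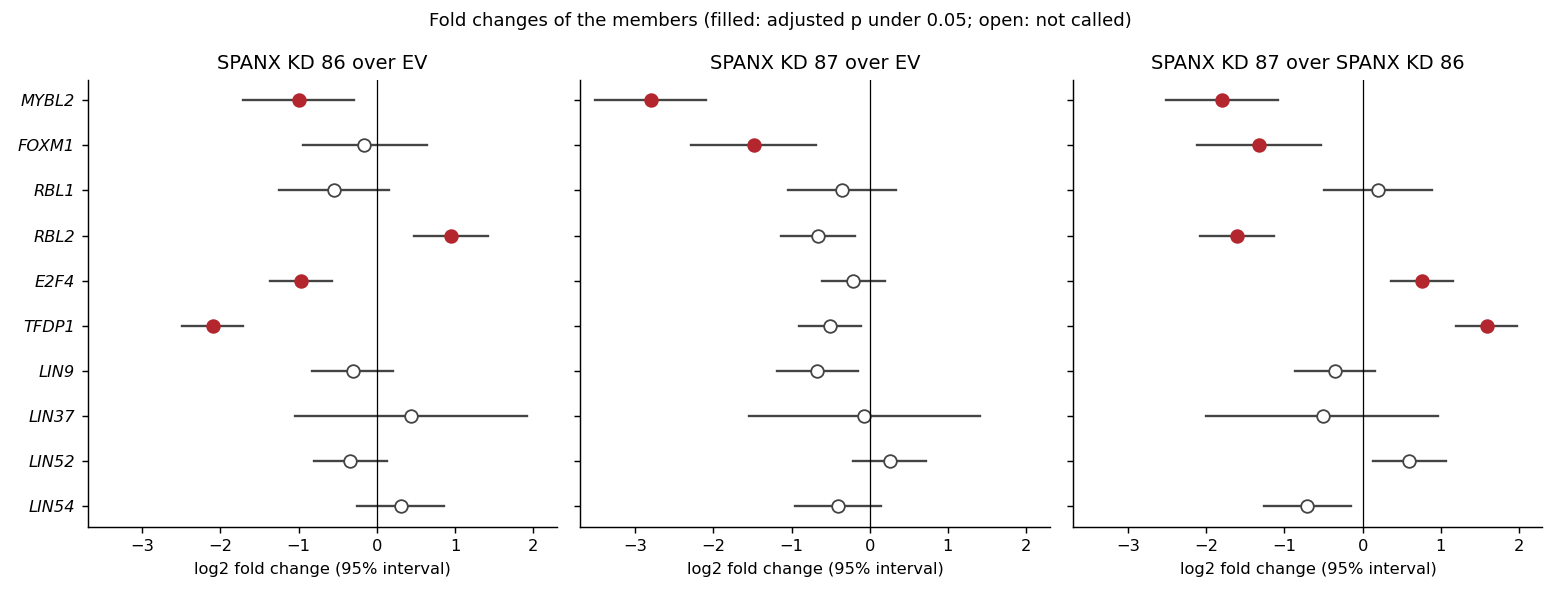
Log2 fold change of each member with its 95% interval, for KD86 over EV, KD87 over EV and KD87 over KD86, from limma on 3 libraries a group. Filled points have an adjusted p under 0.05. RBL2 is the one member filled on the higher side over EV, and TFDP1 and E2F4 are filled with KD86 and not with KD87.

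The pocket proteins gave different patterns. RBL2 (ENSG00000103479.15, chromosome 16), which encodes p130, the pocket protein of resting cells, stood on opposite sides of EV with the 2 constructs. Its level was 1412, 1717 and 1723 normalised reads in KD86 libraries, 429, 552 and 616 in KD87 libraries, and 658, 942 and 937 in EV libraries. Every KD86 library lay above and every KD87 library below all EV libraries. RBL2 rose 1.93-fold with KD86 (log2 0.95, SE 0.21, limma adjusted p = 0.0068). With KD87 its log2 fold change was -0.66 (95% interval -1.14 to -0.19, adjusted p = 0.0734), which is no call. The fit with the replicate block called it lower (0.00491), as did the fit with the trend by transcript length removed (0.0287). KD87 lay 3.06-fold below KD86 (log2 difference -1.61, adjusted p = 0.000619). RBL2 overlaps AKTIP on the other strand, with deposited values of 113 to 298.

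RBL1 (ENSG00000080839.11, chromosome 20), which encodes p107, a pocket protein made mainly in cycling cells, stood at 243, 279 and 258 normalised reads in KD86 libraries, 254, 376 and 276 in KD87 libraries, and 279, 664 and 297 in EV libraries. EV replicate 2 stood far above the other EV libraries, 2.38 times the lowest. The log2 fold change was -0.55 with KD86 (95% interval -1.25 to 0.15, adjusted p = 0.198) and -0.35 with KD87 (-1.05 to 0.34, adjusted p = 0.501). Without EV replicate 2 these values were -0.14 and 0.04. With the replicate block the KD86 value passed (adjusted p = 0.0445), and with the length trend removed it was -0.86 (0.0172). The direct difference between KD87 and KD86 was 0.20 (-0.50 to 0.89, adjusted p = 0.697).

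E2F4 and TFDP1, the DNA-binding pair of DREAM, both fell with KD86. TFDP1 (ENSG00000198176.12, chromosome 13), the shared partner of E2F proteins, had 1298, 1243 and 1420 normalised reads in KD86 libraries, 3671, 4137 and 4144 in KD87 libraries, and 6316, 6025 and 4737 in EV libraries. The 3 groups did not overlap, with KD86 lowest and KD87 between. The fall with KD86 was 4.28-fold (log2 -2.10, SE 0.18, limma adjusted p = 6.28e-05). With KD87 the log2 fold change was -0.51 (95% interval -0.90 to -0.11, adjusted p = 0.0943), called lower when the replicate number was a block (0.0309). KD87 lay 3.02-fold above KD86 (log2 difference 1.59, adjusted p = 0.000301).

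E2F4 (ENSG00000205250.8, chromosome 16), the repressor E2F of resting cells, had 1135, 1397 and 1408 normalised reads in KD86 libraries, 1911, 2557 and 2234 in KD87 libraries, and 2473, 2810 and 2423 in EV libraries. KD86 libraries lay below all others, and KD87 and EV libraries overlapped. E2F4 fell 1.96-fold with KD86 (log2 -0.97, SE 0.18, limma adjusted p = 0.00269), against a log2 value of -0.21 with KD87 (95% interval -0.61 to 0.19, adjusted p = 0.49). KD87 lay 1.70-fold above KD86 (log2 difference 0.76, adjusted p = 0.0117), a call that was lost without KD87 replicate 2 (0.0578).

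The MuvB core gave no call in any comparison, and some with the replicate block. LIN9 (ENSG00000183814.15, chromosome 1), needed for MuvB to bind MYBL2, had 361, 217 and 285 normalised reads in KD86 libraries, 184, 217 and 267 in KD87 libraries, and 336, 335 and 379 in EV libraries. All KD87 libraries lay below all EV libraries, and the log2 fold change of -0.67 with KD87 (95% interval -1.18 to -0.15) was not called (limma adjusted p = 0.0945), though the replicate block gave a call (0.0286). With KD86 it was -0.31 (adjusted p = 0.321). LIN52 (ENSG00000205659.10, chromosome 14), whose phosphorylation by DYRK1A lets the pocket protein bind, had 140.2, 142 and 113 normalised reads in KD86 libraries, 237, 183 and 180.1 in KD87 libraries, and 183, 160 and 156 in EV libraries. It stood higher in every KD87 library than in every KD86 library, by 0.59 on the log2 scale (95% interval 0.13 to 1.06, adjusted p = 0.0624; 0.0179 with the replicate block). Against EV its log2 fold changes were -0.34 with KD86 and 0.26 with KD87, neither called.

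LIN54 (ENSG00000189308.10, chromosome 4), the subunit that binds DNA at CHR elements, had 463, 406 and 369 normalised reads in KD86 libraries, 193, 317 and 259 in KD87 libraries, and 287, 446 and 285 in EV libraries. KD87 libraries lay below all KD86 libraries, by -0.71 on the log2 scale (95% interval -1.26 to -0.15, limma adjusted p = 0.0614; 0.0137 with the replicate block and 0.0292 without EV replicate 2). Its KD86 value against EV was 0.31 (adjusted p = 0.359) and turned to -0.04 with the length trend removed. LIN54 overlaps THAP9 on the other strand, with deposited values of 38 to 78. LIN37 (ENSG00000267796.7, chromosome 19), a subunit needed for repression, rested on 5 to 32 reads a library. Its levels were 11.7, 23.0 and 28.3 in KD86 libraries, 5.28, 18.1 and 24.6 in KD87 libraries, and 6.70, 11.9 and 34.7 in EV libraries, and all groups overlapped. Its log2 fold change was 0.44 with KD86 (95% interval -1.04 to 1.92) and -0.07 with KD87 (-1.55 to 1.41), and no difference was called. Replicate 1 was the lowest library in each group. RBBP4, the remaining subunit, had log2 fold changes of -0.35 with KD86 (adjusted p = 0.118, and 0.0473 with the replicate block) and -0.19 with KD87 (0.492).

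Compared within replicate numbers, MYBL2 was lower in all 3 pairs with KD86 (log2 differences -1.19, -1.31 and -0.51) and in all 3 with KD87 (-3.71, -2.80 and -1.89). FOXM1 was lower in all 3 pairs with KD87 (-1.89, -1.50 and -1.06) and in 2 of 3 with KD86 (0.20, -0.56 and -0.10). For both genes the pair numbered 1 gave the largest KD87 difference and the pair numbered 3 the smallest. The labels do not say whether libraries of the same number belong together.

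E2F5, the other E2F of DREAM, fell 2.54-fold with KD86 (158 ± 46.8 in KD86 and 406 ± 128 in EV libraries, limma adjusted p = 0.00875). With KD87 its log2 value was -0.62 (adjusted p = 0.239, and 0.0202 with the replicate block). TFDP2, the alternative partner, had a log2 value of 0.47 with KD87 (adjusted p = 0.152, and 0.0311 with the replicate block) and 0.04 with KD86 (0.895). Of 7 other E2F and RB family genes, 1 rose and 1 fell with KD86, beside 35.6% of all genes called, a share that the family did not exceed. With KD87, 0 rose and 3 fell, beside 10.3% called. With the replicate block these counts were 3 and 2 with KD86, beside 7646 of 13825 genes called. With KD87 the block gave 2 and 3, beside 4281 genes called. E2F1, an activator E2F whose gene is itself an E2F target, had 662, 681 and 806 normalised reads in KD86 libraries, 195, 357 and 354 in KD87 libraries, and 834, 923 and 657 in EV libraries. It fell 2.73-fold with KD87 (adjusted p = 0.00804) and KD87 lay 2.44-fold below KD86 (adjusted p = 0.00465), whereas its log2 fold change with KD86 was -0.16 (adjusted p = 0.654). E2F2 fell with both (log2 -1.57 with KD86, adjusted p = 0.00627, and -1.43 with KD87, adjusted p = 0.0273). E2F7, an atypical repressor, rose 2.87-fold with KD86 (adjusted p = 0.00434), and its relative E2F8 fell 2.90-fold with KD87 (adjusted p = 0.0355). With KD86 all E2F8 libraries also lay below all EV libraries, at a log2 value of -1.03 (adjusted p = 0.0656, 0.0149 with the replicate block and 0.0447 with the length trend removed). The KD87 calls of E2F2 and E2F8 were lost without EV replicate 1 (0.0716 for E2F2 and 0.1 for E2F8), KD87 replicate 1 (0.115 for each) or KD87 replicate 2 (0.0512 and 0.0537), and that of E2F8 also without EV replicate 2 (0.0608), KD86 replicate 2 (0.0564) or 3 (0.0502) or KD87 replicate 3 (0.0843). With only KD87 and EV libraries fitted, the adjusted p was 0.0549 for E2F2 and 0.0755 for E2F8.

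The kinases, cyclins and inhibitors that act on DREAM were measured for 15 of 17 listed genes, CCND2 and CDKN2B being at 0. With KD86, 7 rose and 3 fell, beside 18% called higher and 17.6% lower over all genes. With KD87, 5 rose and 2 fell, beside 5.91% and 4.43%. The CDK inhibitors of the list did not move alike. CDKN1A (p21), CDKN1B (p27) and CDKN1C (p57), which hold DREAM together by keeping pocket proteins unphosphorylated, rose with both. CDKN2C (p18), an inhibitor of CDK4 and CDK6, fell with both, by 0.95 on the log2 scale with KD86 (limma adjusted p = 0.0144) and by 1.05 with KD87 (adjusted p = 0.0256). Its KD86 call did not hold without EV replicate 1 (0.0591) or KD86 replicate 2 (0.0679) or 3 (0.0548), nor its KD87 call without EV replicate 1 (0.102) or KD87 replicate 1 (0.0796), 2 (0.0812) or 3 (0.0607). CDKN2A and CDKN2D, of the same family, were not called, with log2 values of 0.06 and -0.06 with KD86 and 0.17 and -0.29 with KD87. CDKN1A averaged 11140 ± 610 with KD86, 9504 ± 2021 with KD87 and 4390 ± 1068 in EV libraries (SD, n = 3 each), a rise of 2.58-fold with KD86 (adjusted p = 0.00147) and 2.17-fold with KD87 (adjusted p = 0.0135). CDKN1B rose 2.6-fold with KD86 (adjusted p = 0.00139) and 2-fold with KD87 (adjusted p = 0.0209), and CDKN1C 1.98-fold (0.0268) and 2.88-fold (0.0119). DYRK1A, the kinase of LIN52, rose 1.81-fold with KD86 (adjusted p = 0.00993, but 0.0597 with the length trend removed), with a log2 value of 0.60 with KD87 (adjusted p = 0.0908, 0.0154 with the replicate block). LATS2, a Hippo kinase linked to DYRK1A, rose 5.05-fold with KD86 (adjusted p = 0.000832) and 2.88-fold with KD87 (0.0213).

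Genes that push the other way also rose. CDK6, a G1 kinase that phosphorylates pocket proteins, averaged 4688 ± 1633 normalised reads with KD86, 1943 ± 500.2 with KD87 and 772 ± 400.4 in EV libraries, a rise of 6.27-fold with KD86 (limma adjusted p = 0.000708) and 2.66-fold with KD87 (0.0402). Its partner CCND1 (cyclin D1) rose 3.15-fold with KD86 (adjusted p = 0.00218), with a log2 value of 0.86 with KD87 (0.0921, 0.00832 with the replicate block). CDK4 fell 1.71-fold with KD86 (adjusted p = 0.00846), and CCNE2 (cyclin E2), an E2F target, fell 3.05-fold with KD86 (adjusted p = 0.00086) and 2.33-fold with KD87 (0.0121). CDK2, the kinase of cyclins E and A, had log2 values of -0.29 with KD86 (adjusted p = 0.252) and 0.56 with KD87 (0.0908, and 0.0302 with the replicate block), and lay 1.8-fold higher with KD87 than with KD86 (0.00901). CCND3 and CCNE1 (cyclins D3 and E1) were not called, with log2 values of -0.40 and -0.24 with KD86 and -0.37 and -0.03 with KD87. Over all genes tested, 817 were called higher and 613 lower with KD87 in the fit reported. Without KD87 replicate 1 these numbers were 225 and 153, and the list gave 1 higher and 0 lower with KD87. Without EV replicate 1 they were 330 and 188, and the list gave 2 higher and 1 lower. The single genes named lost their KD87 calls in the fits without 1 of these libraries as follows. Without KD87 replicate 1 the adjusted p was 0.0723 for CDKN1A, 0.106 for CDKN1B, 0.0985 for LATS2, 0.163 for CDK6 and 0.0645 for CCNE2. Without EV replicate 1 it was 0.0592 for CDKN1B, 0.0891 for LATS2 and 0.151 for CDK6. LATS2 also missed the threshold without EV replicate 3 (0.0621) or KD87 replicate 2 (0.0812), and CDK6 without EV replicate 3 (0.107), KD86 replicate 1 (0.0514) or 2 (0.0526) or KD87 replicate 2 (0.122), with no variance trend (0.0574) and with only KD87 and EV libraries fitted (0.0538). CDKN1C missed it with KD86 without EV replicate 1 (0.0638) or 3 (0.0882) or KD86 replicate 1 (0.0864) or 2 (0.0653).

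**Figure D3:**
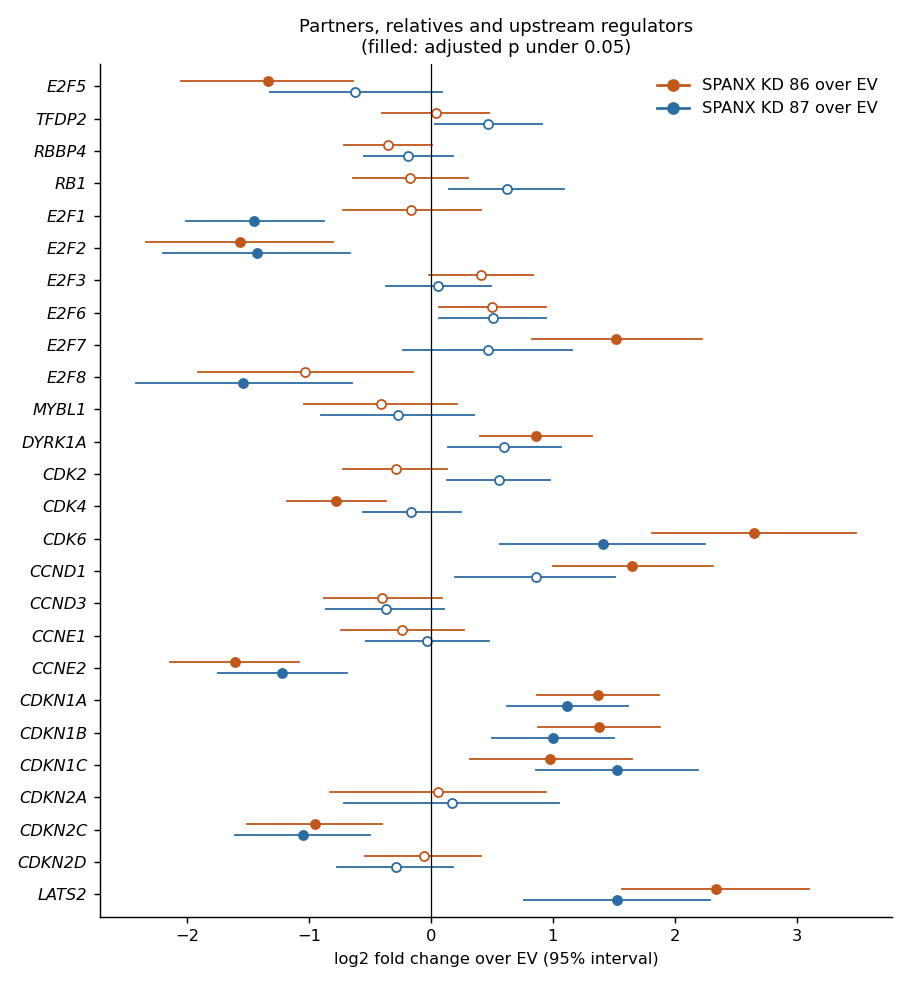
Log2 fold change over EV with its 95% interval for partners, E2F, RB and MYB relatives and upstream regulators, for KD86 and KD87 (limma, 3 libraries a group). Filled points have an adjusted p under 0.05. CDKN1A, CDKN1B, CDKN1C, CDK6 and LATS2 are filled on the higher side for both constructs, while CDK4 is filled on the lower side for KD86 and open for KD87.

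Of 44 tested G2 and mitosis genes that MYBL2, FOXM1 and MuvB activate, 0 rose, 29 fell and 15 were not called with KD86 (median log2 fold change -1.04, against -0.04 over all genes). With KD87, 0 rose, 26 fell and 18 were not called (median -1.13, against 0.00). Over all genes, 17.6% were called lower with KD86 and 4.43% with KD87 in the fit reported. Without KD87 replicate 1, 7 of the list fell with KD87. Over all genes tested, 153 were called lower with KD87 in that fit, against 613 in the fit reported. With KD86, CCNB2 and CCNB1, the cyclins of mitotic entry, and HMMR, a spindle protein, were among the 6 with the smallest adjusted p. CCNB2 averaged 317 ± 40.2 normalised reads with KD86, 536 ± 121 with KD87 and 1469 ± 136 in EV libraries (SD, n = 3 each), a fall of 4.64-fold with KD86 (limma adjusted p = 9.53e-05) and 2.78-fold with KD87 (adjusted p = 0.00364). HMMR averaged 148 ± 74.5 with KD86, 350.3 ± 112 with KD87 and 1253 ± 283 in EV libraries, a fall of 9.01-fold with KD86 (adjusted p = 0.000247). CCNA2, AURKB and UBE2S, which encode cyclin A2, a chromosome passenger kinase and a ubiquitin enzyme of mitotic exit, fell 3.10-fold to 3.48-fold with KD86. With KD87 the smallest adjusted p values after CCNB2 were those of CENPA, the centromeric histone (3.05-fold lower, 0.00495), CCNB1 (2.69-fold, 0.00688), the centrosome kinase NEK2 (3.09-fold, 0.00707), CCNA2 (2.77-fold, 0.00804) and AURKA (2.50-fold, 0.0092).

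Counts of these genes depended on single libraries with KD87. They were 9 without EV replicate 1 and 42 with the replicate block, where 188 and 2051 of 13825 genes were called lower. With KD86 they ran from 20 to 30 when 1 library was left out, where 1413 to 2989 of 13825 genes were called lower. Between the constructs, 3 were higher with KD87 (HMMR, CCNB2 and AURKB) and 2 lower (CCNF and NEK2), out of 44, beside a background of 12.7% and 12.9%. The replicate block gave 6 higher and 8 lower, beside 3073 and 3021 of 13825 genes. Without KD87 replicate 2 the adjusted p of the difference was 0.0754 for HMMR, 0.105 for CCNB2, 0.154 for AURKB and 0.0761 for NEK2, and other single libraries ended these calls too. CCNF, which encodes cyclin F, had no call with KD86 (log2 -0.31) and fell with KD87 (log2 -1.41), where its level lay 1.10 lower on the log2 scale than with KD86.

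**Figure D4:**
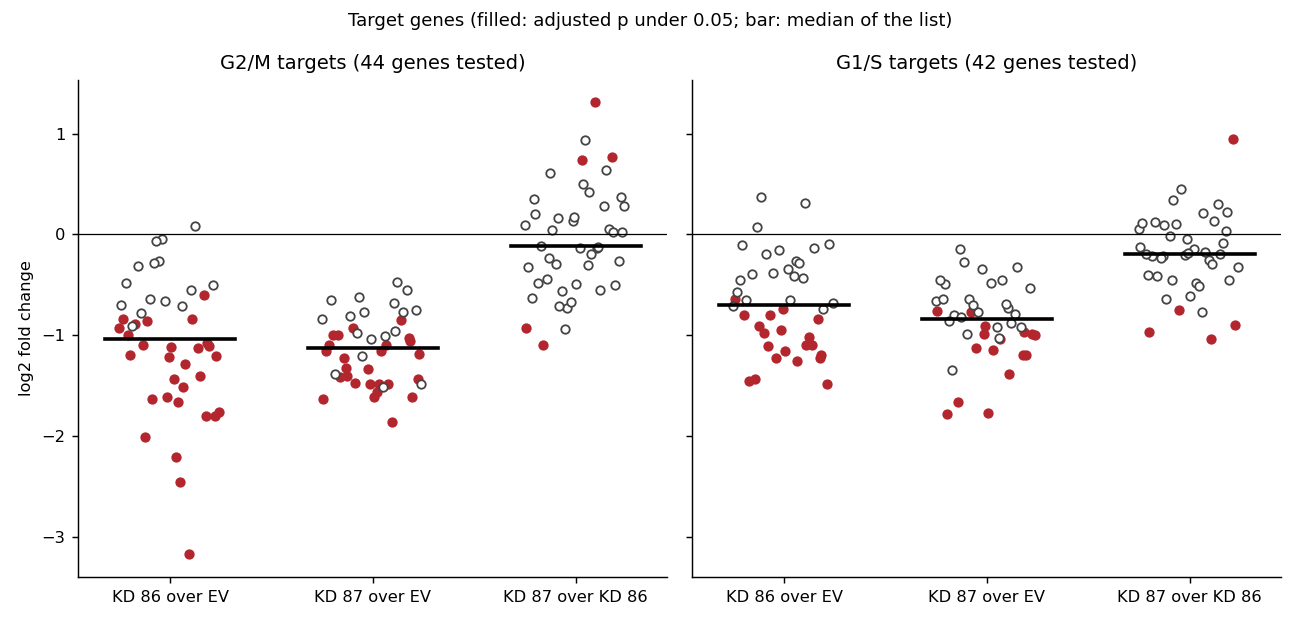
Log2 fold change of each tested G2/M target (left, 44 genes) and G1/S target (right, 42 genes) for KD86 over EV, KD87 over EV and KD87 over KD86. Each point is a gene, filled points have an adjusted p under 0.05, and the bar is the median of the list. Medians are -1.04 and -1.13 against EV for G2/M targets and lie near 0 between the constructs.

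The G1/S genes that E2F proteins activate and DREAM represses were measured for 42 of 43 listed, UHRF1 not being analysed here. With KD86, 0 rose, 20 fell and 22 were not called (median log2 fold change -0.69, against -0.04 over all genes, of which 17.6% were called lower). With KD87, 0 rose, 16 fell and 26 were not called (median -0.84, against 0.00 and 4.43%). MCM6, part of the replicative helicase, averaged 551 ± 79.5 normalised reads with KD86, 471 ± 66.3 with KD87 and 1515 ± 393 in EV libraries (SD, n = 3 each), a fall of 2.70-fold with KD86 (limma adjusted p = 0.00137) and 3.16-fold with KD87 (0.00334). CDC45, its helicase partner, fell 2.34-fold with KD86 (adjusted p = 0.00305), and POLA1, the catalytic subunit of DNA polymerase alpha, fell 2.80-fold (0.00339). With KD87, TK1 (thymidine kinase) fell 3.42-fold (adjusted p = 0.00543) and GINS2, another helicase partner, 3.40-fold (0.00815). TYMS, thymidylate synthase, fell 2.61-fold with KD87 (0.00976), a call lost without KD87 replicate 1 (0.0541). The KD86 count was 10 without EV replicate 1, 10 without KD86 replicate 2 and 13 without KD86 replicate 3. Over all 13825 genes, 1559, 1413 and 1943 were called lower with KD86 in those fits, against 2432 in the fit reported. The KD87 count was 4 without EV replicate 1, 3 without KD87 replicate 1, 7 without KD87 replicate 2 and 33 with the replicate block. Over all 13825 genes, 188, 153, 255 and 2051 were called lower with KD87 in those fits, against 613 in the fit reported. Both target lists were chosen with earlier results of these data known, so that their direction is described here and not tested.

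Patterns over the 9 libraries were compared as the root mean square difference between log2 levels centred on each gene's mean, where 0 means the same profile. This difference grows with the size of a gene's changes, so members that move little lie close together whatever their pattern. Among members it was smallest for LIN52 and E2F4 (0.373), RBL1 and E2F4 (0.374) and LIN9 and LIN54 (0.385). It was largest for RBL2 and TFDP1 (1.5). MYBL2 and FOXM1, whose log2 levels had SDs of 1.29 and 0.843 over the libraries, differed by 0.601. Among 11321 other genes, the closest to FOXM1 were TIMELESS (0.165), CCNF (0.186), SMC1A (0.189), VIPR1 (0.222) and DPYSL3 (0.242), against a median of 0.908. TIMELESS, a replication fork protein, ran from 679 to 1012 normalised reads in KD86, 278 to 559 in KD87 and 813 to 1673 in EV libraries. The closest to MYBL2 were GAL (0.439), AKR1C1 (0.445), TK1 (0.464), HR (0.471) and GLTP (0.509), against a median of 1.3. GAL, which encodes the neuropeptide galanin, ran from 62.7 to 76.6 in KD86, 18.0 to 43.0 in KD87 and 116 to 209 in EV libraries. Its groups did not overlap either, but GAL was picked for its likeness to MYBL2 over these same libraries. That pattern is no separate result.

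**Figure D5:**
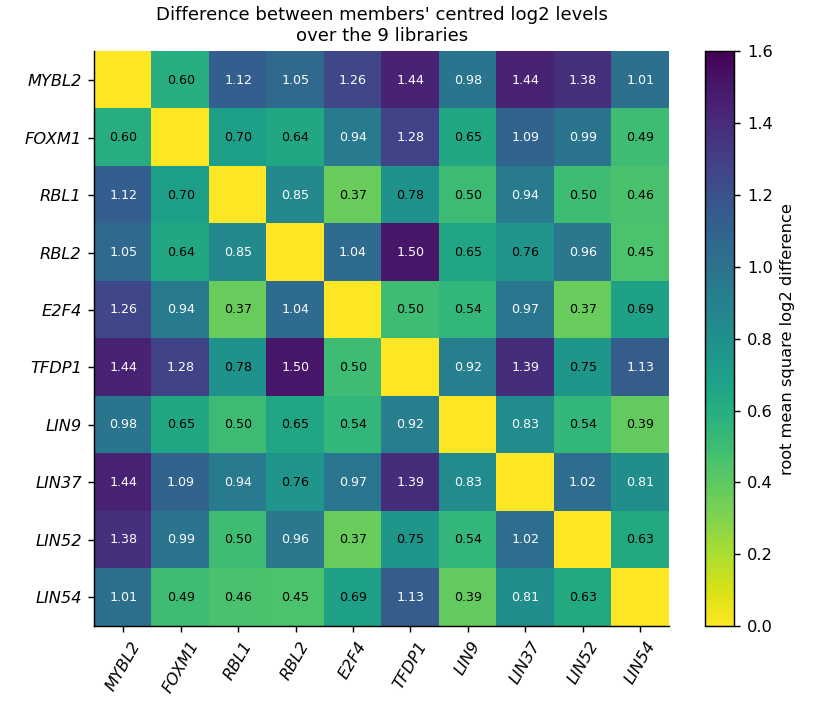
Root mean square difference between the centred log2 levels of each pair of members over the 9 libraries, from 0 (same profile) to 1.5. LIN52, RBL1 and E2F4 lie close together, while TFDP1 is far from RBL2 and MYBL2. The difference grows with the size of the changes, so it does not rank members by shared pattern alone.

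Fold changes over all genes moved with transcript length. The median log2 fold change of genes in the shortest 20% (up to 1826 bases) was -0.48 with KD86 and -0.23 with KD87, and that of the longest 20% (from 5700.2 bases) was 0.39 with KD86 and 0.21 with KD87. The longest annotated transcripts of the members run from 1150 bases (LIN37) to 6127 bases (LIN54), with 2648 for TFDP1, 2096 for E2F4, 2704 for MYBL2 and 4906 for RBL2. With the trend removed, the log2 fold change with KD86 was -1.99 for TFDP1, -0.76 for E2F4, -0.90 for MYBL2 and 0.71 for RBL2, and each kept its call.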

How the data were processed

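The 9 libraries were made with a QuantSeq 3' FWD kit, per the labels' protocols. Per the submitters' processing notes, the tools were STAR, Subread, featureCounts and edgeR (versions not given in the sources used here) and the build hg19. The deposited files hold a normalised read count per gene, treated here as a score, which the authors obtained by scaling and rounding each library, as the spacing of the values shows. The constant behind that spacing was recovered, and whole reads times the constant returned 97.34% to 100% of a library's values. Where the constant is below 1, a return of 100% is fixed in advance and says nothing of the recovery. This holds for EV replicate 2, KD86 replicates 1 and 2 and KD87 replicate 2. IDs above 0 in the EV and KD86 files alone (400) or in the KD87 files alone (453) were left out. The KD87 files thus stand apart from the others in the IDs they hold above 0. Any difference between KD87 and EV or KD86 libraries cannot be told apart from a difference between these sets of files.

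Recovered reads were scaled over all libraries with the TMM formula (trimming 30% of log ratios and 5% of abundances) and tested with limma (3.58.1, R 4.3.3) on log2(level + 1), with a variance trend, 1 coefficient per group and 6 residual degrees of freedom. P-values are two-sided, adjusted by Benjamini-Hochberg over 13825 genes, with a threshold of 0.05. The pseudocount shrinks the fold changes of genes with low counts. In 5 simulations of KD86 against EV with 200 of 13825 genes changed, 13.6% of 2-fold and 91% of 4-fold changes were recovered, with 5.4 false calls on average. The simulations gave every gene the same assumed dispersion and held no effect of the replicate number. They check the code, and their rates need not hold for these data.

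Deviations from group means correlated across 11322 genes at 0.171 to 0.809 in the 9 pairs of libraries sharing a replicate number. In the 18 others they correlated at -0.712 to 0.233. The ranges overlap only through EV replicate 1 with KD87 replicate 1 (0.171). The next lowest pair sharing a number stood at 0.384. KD87 replicate 1 correlated at 0.156 with EV replicate 2. Deviations within a group sum to 0, so the 18 values are not independent of the 9. The values alone do not settle whether the numbers pair the libraries. The replicate block was an alternative, and the fit reported left it out, as did the fits without 1 library. Transcript lengths (13770 genes, longest basic transcript, removed with a spline of 4 degrees of freedom) and overlaps came from GENCODE v29. The members and gene lists were chosen with earlier results of these data known. All members were named, with tested genes of the partner, relative and upstream lists, the 6 targets per list and construct with the smallest adjusted p, and the 5 genes closest in profile to MYBL2 and FOXM1 among genes averaging at least 5 CPM. Besides the genes counted, 1 further upstream gene and 1 further marker are not reported here. The targets named for a difference between constructs were chosen after their values were seen. Scaling, pseudocount, filter, trend, pairing and each library were varied in turn.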

Additional observations from a re-analysis of the deposited data

Results flagged for a closer look

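For 5 members the change against EV differed between the constructs by the limma test of that difference, adjusted over all genes. The KD87 minus KD86 log2 difference was -1.80 for MYBL2 (adjusted p = 0.00283), -1.33 for FOXM1 (0.0208), -1.61 for RBL2 (0.000619), 0.76 for E2F4 (0.0117) and 1.59 for TFDP1 (0.000301). In each case the 3 KD87 libraries did not overlap the 3 KD86 libraries, as was also so for LIN52 and LIN54, which were not called. The share of all genes without overlap was not counted. Of all genes tested, 25.6% were called in this comparison. The activators MYBL2 and FOXM1 and the pocket protein RBL2 were lower with KD87, and E2F4 and TFDP1, which bind E2F sites together, were lower with KD86. In this comparison the construct and the set of files cannot be told apart.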

How the results depend on the processing

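Scaling by median of ratios, the deposited values without common rescaling, pseudocounts of 0.5 and 5, a minimum of 5 CPM and no variance trend changed no member call. With the replicate block, genes called numbered 7646 with KD86, 4281 with KD87 and 6094 between constructs (4926, 1430 and 3534 without it), and 7574, 4800 and 6573 with the length trend removed as well. The members called with KD87 were 5 with the block, 6 with both (LIN54 added) and 1 when only KD87 and EV libraries were fitted (2 in the fit reported). Beside the member calls given with their results, the block changed none. With KD87, 2628 genes were called with no filter and 858 with 2 groups fitted. Leaving out 1 library, genes called ran from 3075 (without KD86 replicate 2) to 6036 with KD86, from 378 (without KD87 replicate 1) to 2556 (without EV replicate 2) with KD87, where they were 518 without EV replicate 1 and 605 without KD87 replicate 2, and from 2217 (without KD86 replicate 2) to 4210 between constructs. Members called with KD87 ran from 1 to 2. Signs turned for values that were not called: LIN54 with KD86 (-0.04 with the length trend removed, with and without the block), LIN37 with KD87 (0.13 likewise), and, leaving out 1 library, FOXM1 with KD86 (-0.41 to 0.17), LIN37 with KD86 (-0.05 to 1.05), with KD87 (-0.56 to 0.54) and between constructs (-0.92 to 0.08), RBL1 with KD87 (-0.57 to 0.04) and CDK4 with KD87 (-0.25 to 0.01). The cause was not tested. Of 597 member values under all alternatives, 11 reversed. Tests on counts with edgeR and DESeq2 were not run, because the deposited values are rounded and, where the constant is below 1, reads are recovered to within rounding only.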
